A study of Mus musculus with 12 samples.

Results

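Oxidative phosphorylation genes were followed in 12 mouse T cell RNA-seq libraries, with the genes encoded in mitochondrial DNA kept apart from those encoded in the nucleus. The members were all protein-coding genes of the count table whose symbol starts with mt-, Nduf, Uqcr, Cox4, Cox5, Cox6, Cox7, Cox8 or Atp5, and in addition Sdha, Sdhb, Sdhc, Sdhd and Cyc1. They numbered 107 of 45706 genes in all, 13 mitochondrially encoded and 94 nuclear. The nuclear genes comprised 36 of complex I, 4 of complex II, 9 of complex III, 20 of complex IV, 16 of complex V (ATP synthase), 8 Ndufaf genes for complex I assembly factors, and Atp5s, a factor related to ATP synthase. Another 35 rows carried one of these prefixes without being annotated as protein coding, 22 of them mitochondrial tRNAs and 2 mitochondrial rRNAs.

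The series compares wild-type (WT) mice with mice lacking Coro1a (KO), the gene of the actin-binding protein coronin 1, in conventional and in regulatory T cells. The groups were WT conventional, KO conventional, WT regulatory and KO regulatory, each with 3 libraries of polyadenylated RNA. Age, strain, tissue of origin and sorting are not given in the labels, nor whether the 3 libraries of a group came from different animals, and the p-values here then cover library-to-library spread that may be technical in part. Levels are read counts scaled to a common library total with trimmed-mean factors (TMM), written CPM.

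Oxidative phosphorylation passes electrons from NADH through complex I, or from succinate through complex II, to complex III and on to oxygen at complex IV. Complexes I, III and IV pump protons across the inner mitochondrial membrane, and complex V makes ATP as the protons flow back. Mitochondrial DNA is transcribed from both strands as long precursors that are cut into single messengers, and it encodes core subunits of every complex but complex II, whose genes are all nuclear. Regulatory T cells are known for relying on this pathway more than freshly activated conventional T cells do.

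Libraries held 19686870 to 33404302 gene counts, and WT regulatory replicate 1 was the shallowest. Coro1a, the deleted gene, lay between 2124 and 2712 CPM in the 6 WT libraries and between 20.9 and 47.3 CPM in the 6 KO libraries. The 4 regulatory T cell markers (Foxp3, Il2ra, Ikzf2, Ctla4) summed to 82.4 to 133 CPM in WT conventional, 203 to 356 in KO conventional, and 1290 to 1744 CPM in all regulatory libraries. Other cells' markers were present too. The 8 B cell markers summed to 510.3 to 633 CPM in conventional and 9497 to 11450 CPM in regulatory libraries, and the 7 erythroid markers to 6.20 to 78.6 and 5181 to 9531 CPM. The 6 T cell genes (Lat, Cd6, Cd5 and the CD3 genes Cd3g, Cd3e, Cd3d) summed to 3063 to 3352 CPM in WT conventional, 1949 to 2316 in KO conventional, 1683 to 2323 in WT regulatory and 1083 to 1663 CPM in KO regulatory libraries. The libraries differed in the sex of their cells: replicates 1 and 2 of both conventional groups expressed Xist without the Y-linked Ddx3y, and replicate 3 of both groups Ddx3y with little Xist, so the conventional libraries of a group did not all come from 1 animal. WT regulatory replicates 1 and 2 and KO regulatory replicates 2 and 3 were of the Ddx3y kind, so sex and cell type cannot be fully told apart. WT regulatory replicate 3 and KO regulatory replicate 1 held reads of both Xist and Ddx3y (764 and 7.80 CPM, 576 and 22.0 CPM), and results that move without them are given both ways. In such bulk samples, fewer cells of a type and less RNA per cell cannot be told apart. Scaling the libraries to the 6 T cell genes in place of TMM moved the median log2 difference of all genes from -0.05 to 0.53 for KO minus WT in conventional cells, from 0.00 to 0.53 in regulatory cells, and from 0.07 to 0.71 (WT) and 0.03 to 0.62 (KO) for regulatory minus conventional cells. Directions below are therefore under TMM, and where T cell gene scaling turned the direction of a called member or a list median, this is said beside it.

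Of the 13 mitochondrially encoded members, 7 had counts: mt-Nd1, mt-Nd2, mt-Nd4, mt-Nd5 and mt-Nd6 of complex I, mt-Cytb, the cytochrome b of complex III, and mt-Co1, the catalytic subunit of complex IV. The other 6, mt-Co2, mt-Atp8, mt-Atp6, mt-Co3, mt-Nd3 and mt-Nd4l, had a count of 0 in all 12 libraries. They lie side by side on the mitochondrial genome, from base 7013 to base 10173 of GRCm38 (chrM:7013-10173). Annotated pseudogenes on chromosome 1 hold the same stretch in the same gene order on the minus strand, and the table counts reads that map to several places in a tally of their own, given to no gene. The first 60 bases of 3 of these uncounted genes, and of their chromosome 1 copies, show how little there is to tell them apart, and mt-Nd1, which has no such copy among annotated transcripts, is given for contrast. Capitals mark the base that differs, and sequences are from GENCODE M21 transcripts on GRCm38, with mt-Co2 at chrM:7013-7072, its copy Gm28661 at chr1:24615506-24615565, mt-Co3 at chrM:8607-8666, its copy Gm28437 at chr1:24613912-24613971, mt-Nd3 at chrM:9459-9518, its copy Gm28438 at chr1:24613060-24613119, and mt-Nd1 at chrM:2751-2810. All 4 mitochondrial stretches are on the plus strand.
mt-Co2: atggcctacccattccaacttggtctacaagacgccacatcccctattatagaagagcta
mt-Co2 copy: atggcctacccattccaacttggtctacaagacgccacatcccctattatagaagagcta
mt-Co3: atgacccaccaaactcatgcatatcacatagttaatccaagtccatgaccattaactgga
mt-Co3 copy: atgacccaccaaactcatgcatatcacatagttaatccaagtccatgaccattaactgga
mt-Nd3: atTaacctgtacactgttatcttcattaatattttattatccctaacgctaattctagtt
mt-Nd3 copy: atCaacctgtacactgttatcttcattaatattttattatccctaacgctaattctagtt
mt-Nd1: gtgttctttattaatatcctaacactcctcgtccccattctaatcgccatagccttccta

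Over the whole aligned length, the copies of mt-Co2 (681 bases), mt-Co3 (783), mt-Atp6 (678), mt-Nd4l (294) and the aligned 876 bases of mt-Nd4 had 0 mismatches. The mt-Nd3 copy differed at 1 of 345 bases, T3C, counted from the gene's first base. A stretch of 492 bases of mt-Co1 was also aligned to a copy, with 6 mismatches. All of them lay between bases 1056 and 1066 of mt-Co1, and the rest of the stretch matched in full. When each transcript was read in words of 50 bases, a length chosen here because the read length is not given in the sources used here, the share of words found in another gene's transcript was 100% for mt-Co2, 99.9% for mt-Co3, 99.5% for mt-Atp6, 98.8% for mt-Nd4l and 98.0% for mt-Nd3. It was 62.2% for mt-Nd4, 51.1% for mt-Co1, 8.2% for mt-Nd2, 7.6% for mt-Nd5 and 0 for mt-Nd1, mt-Nd6 and mt-Cytb. The exception was mt-Atp8. It had a count of 0 although none of its words was shared with an annotated transcript, and the chromosome 1 sequence between the copies of mt-Atp6 and mt-Co2, where its own copy would lie, was not analysed here. The 6 annotated pseudogenes aligned to mt-Co2, mt-Co3, mt-Atp6, mt-Nd4l, mt-Nd3 and mt-Nd4 held 2 to 43 counts each over the 12 libraries together, and Gm29216, beside mt-Co1, held 350. Multimapping reads made up 9.25 to 11.1% of all reads in conventional and 15.8 to 19.5% in regulatory libraries, and which genes they came from was not tested. A count of 0 is therefore not read here as absent messenger, and all sums below cover the 7 countable genes.

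**Figure D1:**
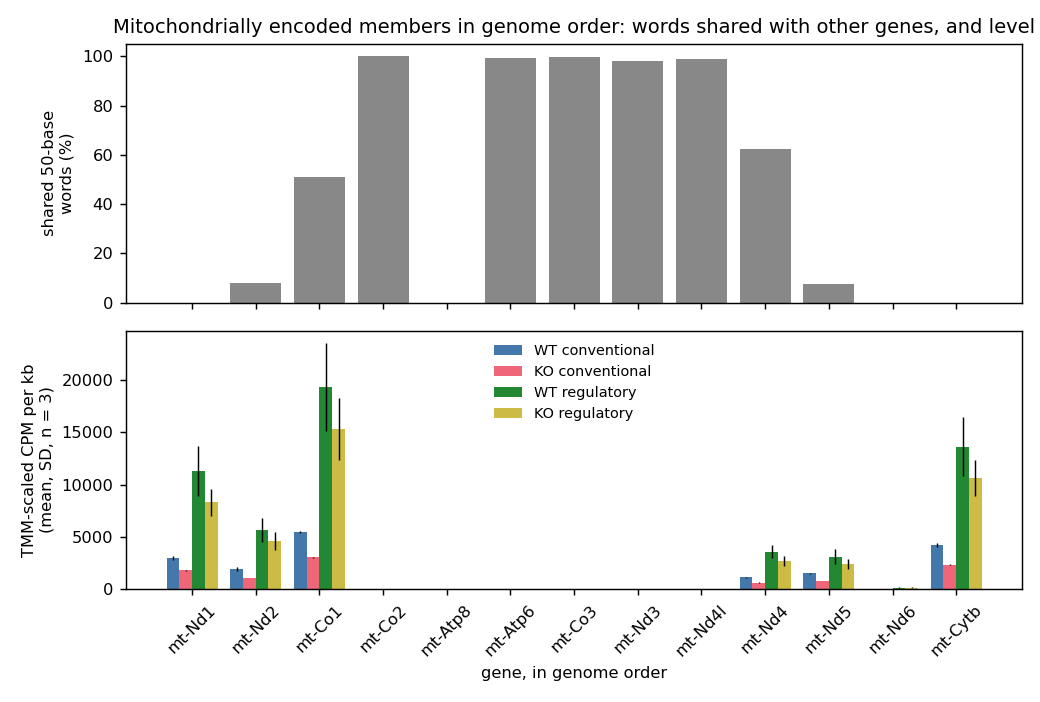
Upper plot: percent of 50-base words of each mitochondrially encoded member that occur in another gene's transcripts, by gene in genome order. Lower plot: level in TMM-scaled CPM per kb of transcript by group (bars, mean; lines, SD of 3 libraries). The block from mt-Co2 to mt-Nd4l has a level of 0, with 98.0 to 100% of words shared in every gene but mt-Atp8.

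Per length, mt-Co1 was the highest of the 7 in every group. In WT conventional cells the levels per kb of transcript were 5467 ± 129 CPM for mt-Co1, 4238 ± 163 for mt-Cytb, 3009 ± 217 for mt-Nd1, 1978 ± 196 for mt-Nd2, 1522 ± 20.2 for mt-Nd5, 1147 ± 71.9 for mt-Nd4 and 60.2 ± 1.59 CPM for mt-Nd6 (SD, n = 3). The last is the only one of them on the minus strand. Counting unshared words alone as length raised mt-Co1 to 11555 ± 273 and mt-Nd4 to 3147 ± 197 CPM per kb (SD, n = 3) in those libraries, an alternative chosen after seeing the data, so the order of mt-Nd4 among the complex I genes rests on how reads from the copied stretch were counted.

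Loss of Coro1a in conventional cells went with lower levels of every countable mitochondrial messenger. All 7 fell (edgeR quasi-likelihood test, Benjamini-Hochberg adjusted over 15922 genes), where 25.4% of all tested genes fell, and their median log2 change was -0.82 against -0.05 for all genes. With T cell gene scaling the 7 values were -0.30 to -0.10 and none passed. The median of all genes then stood at 0.53, and 60 of 15922 genes fell. mt-Co1 was 8216, 8560 and 8564 CPM in WT conventional libraries against 4845, 4697 and 4772 CPM with Coro1a deleted. The ranges were far apart, and its log2 change was -0.82 (SE 0.18, adjusted p = 0.00298). mt-Nd5, a proton-pumping subunit of the membrane arm of complex I, was 2735, 2788 and 2805 CPM in WT libraries against 1489, 1484 and 1504 CPM in KO libraries, a log2 change of -0.90 (SE 0.17, adjusted p = 0.00122). mt-Nd6, on the minus strand, was 31.3, 32.1 and 30.4 CPM in WT libraries against 18.96, 19.3 and 19.7 CPM in KO ones, a log2 change of -0.69 (SE 0.14, adjusted p = 0.00154). In no mitochondrial gene did a WT conventional library overlap a KO one, and the share of all tested genes without overlap was not counted. The other 4 changes lay between -0.86 (mt-Nd2) and -0.73 (mt-Nd1). Markers of other cells moved in the same libraries, and their part in these results was not tested. The 13 neutrophil markers summed to 8.87 to 15.9 CPM in WT and 364 to 729 CPM in KO conventional libraries, the 14 macrophage and monocyte markers to 389 to 583 and 2120 to 4496 CPM, and the 9 NK cell markers to 72.4 to 91.6 and 358 to 671 CPM. In each of these 3 marker lists no gene was at 0 throughout a group.

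In regulatory cells the same knockout comparison called none of the 7 (edgeR), where 3.82% of all tested genes fell and 4.01% rose. At an unadjusted p below 0.05 edgeR had 3, mt-Nd1, mt-Nd4 and mt-Cytb. Counts at an unadjusted p were not made over all genes. Without the 2 libraries with both Xist and Ddx3y reads it had 6, all but mt-Nd6, with a median of -0.43 and again no call (the lowest adjusted p was that of mt-Nd4, 0.0556). DESeq2 had 6 at an unadjusted p below 0.05 and called 2, mt-Nd1 (-0.45, adjusted p = 0.0209) and mt-Nd4 (-0.41, adjusted p = 0.027). Of all 15922 tested genes DESeq2 called 945 higher and 1065 lower, more than the 638 and 608 of edgeR. The median of the 7 lay at -0.36 (edgeR) and turned to 0.21 under T cell gene scaling. mt-Co1 was 34668, 22501 and 32410 CPM in WT regulatory libraries against 28704, 19914 and 22162 CPM in the KO ones. The groups overlapped, with WT replicate 2 below KO replicate 1, and the log2 change was -0.34 (SE 0.18, adjusted p = 0.255), or 0.23 with T cell gene scaling. mt-Nd6 was 106, 70.9 and 84.4 CPM in WT libraries against 108, 86.3 and 81.2 CPM in KO ones, a log2 change of 0.08 (SE 0.13, adjusted p = 0.747). Spread within groups was much wider than in conventional cells. The SD of log2 CPM, as the median over the 7 genes, was 0.06 in WT conventional, 0.03 in KO conventional, 0.31 in WT regulatory and 0.24 in KO regulatory cells. Without WT regulatory replicate 2 mt-Nd1 passed (-0.59, adjusted p = 0.0495), and without KO regulatory replicate 1 mt-Nd4 passed (-0.55, adjusted p = 0.0452). Neutrophil markers summed to 64.9 to 122 CPM in WT and 130 to 318 CPM in KO regulatory libraries. NK cell markers stood at 55.5 to 91.0 against 102 to 110 CPM, and dendritic cell markers at 97.2 to 133 against 136 to 197 CPM. Macrophage and monocyte, B cell and erythroid sums overlapped, and CD8 T cell sums were lower in KO. The part of all these cells was not tested.

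**Figure D2:**
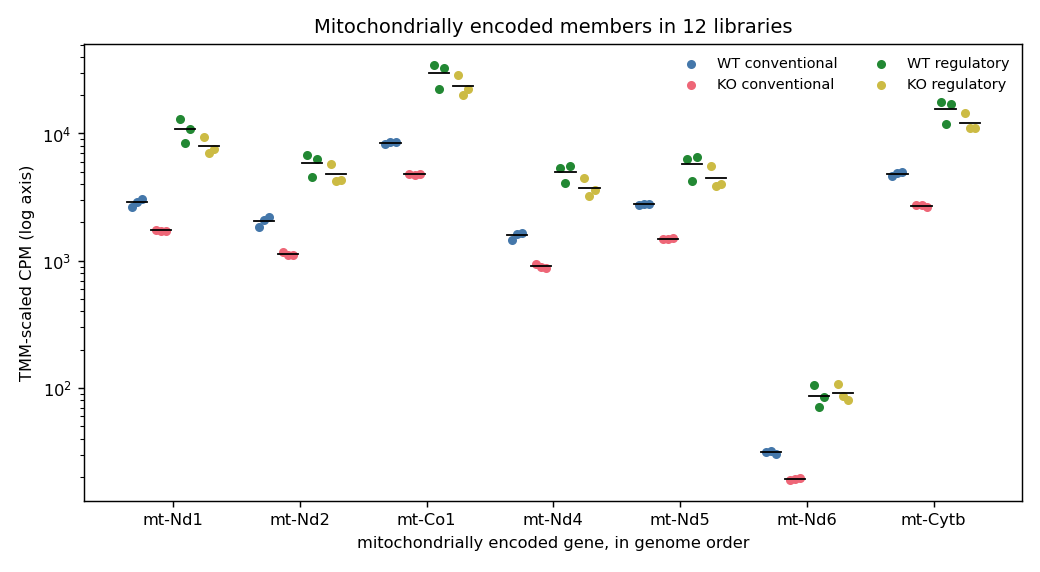
TMM-scaled CPM (log axis) of the 7 mitochondrially encoded members with counts, in genome order; each point is 1 of 12 libraries, coloured by group, and each line a mean of 3. KO conventional libraries lie below WT conventional ones in every gene, for mt-Co1 at 4697 to 4845 against 8216 to 8564 CPM, and the WT and KO regulatory libraries overlap.

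Regulatory cells held more mitochondrially encoded messenger than conventional cells in both genotypes. All 7 rose in WT, where 39.1% of all tested genes rose and 33.3% fell, with a median log2 difference of 1.66 against 0.07 for all genes. All 7 also rose in KO, where 36.1% rose and 31.7% fell, with a median of 2.16 against 0.03. mt-Cytb was 4635, 4926 and 4982 CPM in WT conventional and 17807, 11857 and 17079 CPM in WT regulatory libraries. It was 2755, 2736 and 2653 CPM in KO conventional and 14482, 11044 and 10975 CPM in KO regulatory libraries. Every regulatory library exceeded every conventional one, with log2 differences of 1.68 (SE 0.16, adjusted p = 3.06e-06) in WT and 2.16 (SE 0.17, adjusted p = 7.98e-07) in KO. The smallest differences were those of mt-Nd5, 1.04 (SE 0.17, adjusted p = 1.65e-04) in WT and 1.58 (SE 0.17, adjusted p = 9.06e-06) in KO, and in WT the largest was that of mt-Nd1, 1.91 (SE 0.16, adjusted p = 9.73e-07). These libraries also differed in their B cell and erythroid marker sums, given above, and no gene of either list was at 0 throughout a group. In WT, macrophage and monocyte markers summed to 1355 to 1702 CPM in regulatory against 389 to 583 in conventional libraries. Neutrophil markers stood at 64.9 to 122 against 8.87 to 15.9 CPM, and dendritic cell markers at 97.2 to 133 against 44 to 56.0 CPM. In KO, neutrophil and NK cell sums were lower in regulatory libraries, and macrophage and monocyte sums overlapped. The part of all these cells was not tested.

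The make-up of the mitochondrial messenger pool therefore differed between conventional and regulatory libraries as well. This is given as a description, since it was noticed in these values. Markers of other cells also differed between these libraries, as given above, and their part in the make-up was not tested. Of the counts of the 7 genes, mt-Nd5 held 12.3 ± 0.344% in WT conventional, 11.7 ± 0.213% in KO conventional, 7.82 ± 0.460% in WT regulatory and 7.84 ± 0.203% in KO regulatory cells (SD, n = 3). mt-Nd1 held 12.7 ± 0.433%, 13.6 ± 0.0242%, 14.9 ± 0.882% and 14.02 ± 0.302% (SD, n = 3) in the same order. The share of mt-Cytb lay between 21.3 and 21.5% in all 4 groups. The ratio of mt-Nd1 to mt-Nd5 counts, both with few or no shared words, was 0.975 to 1.10 in WT conventional, 1.14 to 1.18 in KO conventional, 1.66 to 2.07 in WT regulatory and 1.696 to 1.86 in KO regulatory libraries. Conventional and regulatory libraries did not overlap in this ratio.

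Against the nuclear members, the mitochondrially encoded ones were lower in KO than WT conventional cells and higher in regulatory than conventional cells. Within a library this ratio needs no scaling between libraries. The 94 nuclear members together held 6507 ± 334 CPM in WT conventional, 5830 ± 46.8 in KO conventional, 8656 ± 609 in WT regulatory and 8865 ± 515 CPM in KO regulatory libraries (SD, n = 3). The ratio of the mitochondrial to the nuclear sum was 3.52, 3.47 and 3.44 in WT conventional libraries against 2.23, 2.16 and 2.19 in the KO ones. In regulatory libraries it was 9.20, 6.29 and 9.91 for WT against 8.14, 5.62 and 5.59 for KO. The log2 ratio was 0.67 lower in KO than WT conventional cells, 1.13 ± 0.0245 against 1.80 ± 0.0160 (SD, n = 3), or 0.63-fold (exact permutation test, two-sided, p = 0.1, the smallest that 3 against 3 libraries allow). In regulatory cells it was 2.67 ± 0.311 in KO and 3.06 ± 0.351 in WT (SD, n = 3; exact p = 0.2, two-sided), and the libraries overlapped. Among libraries with Ddx3y and little Xist, the ratio was 3.44 in WT conventional replicate 3 against 9.20 and 6.29 in WT regulatory replicates 1 and 2, and 2.19 in KO conventional replicate 3 against 5.62 and 5.59 in KO regulatory replicates 2 and 3. Regulatory libraries had 2.39-fold the ratio of conventional ones in WT and 2.90-fold in KO (exact p = 0.1 each, two-sided). Adjusted over the 8 tests of ratios and shares, the exact permutation p-values became 0.133 and 0.2. The mitochondrial share of all gene counts was 2.17 ± 0.0818% in WT conventional, 1.39 ± 0.0239% in KO conventional, 7.04 ± 1.38% in WT regulatory and 5.64 ± 0.990% in KO regulatory libraries (SD, n = 3). With the median gene in place of the sum, the regulatory minus conventional difference of the log2 ratio was 0.60 in WT and 0.98 in KO, in place of 1.26 and 1.54. The libraries compared differed in markers of other cells, as given above, and the part of those cells in the ratio was not tested.

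**Figure D3:**
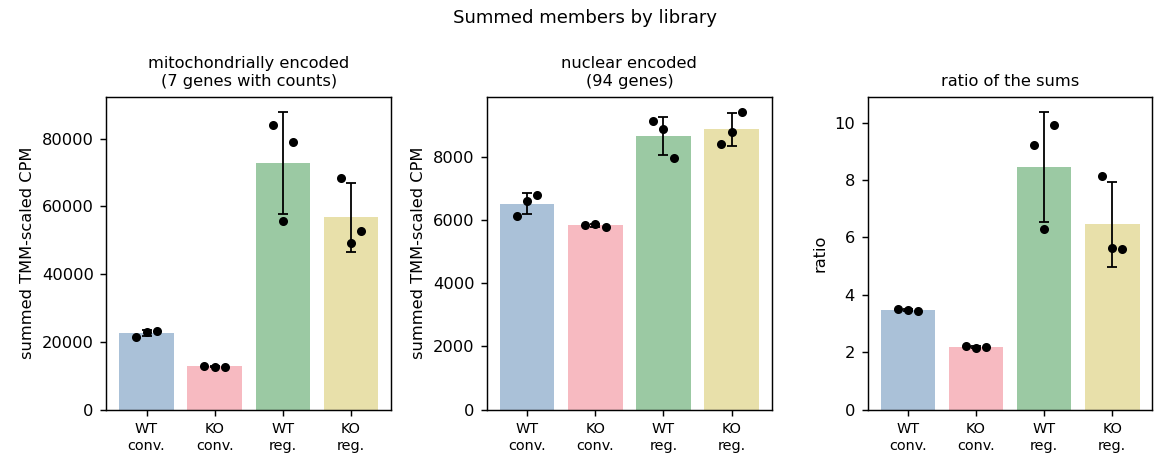
Summed TMM-scaled CPM of the 7 countable mitochondrially encoded and the 94 nuclear members, and the ratio of the 2 sums, by group (bars, mean; lines, SD of 3 libraries; points, libraries). The ratio is 3.44 to 3.52 in WT conventional, 2.16 to 2.23 in KO conventional and 5.59 to 9.91 in regulatory libraries.

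Of the 94 nuclear members, 90 had enough counts to be tested. The 4 others, Cox7b2, Cox8b, Cox8c and Ndufa4l2, are isoforms taken up below. The nuclear member with the highest mean CPM was Sdha for complex II (mean of 12 libraries 280.4 CPM, or 68.0 CPM per kb of exon), Uqcrh for complex III (196, or 158 per kb), Cox4i1 for complex IV (257, or 166 per kb) and Atp5b for complex V (725, or 171 per kb). On the per-length scale these stood far below mt-Co1, mt-Cytb and mt-Nd1, whose 12-library means were 10788, 7716 and 6104 CPM per kb.

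Loss of Coro1a in conventional cells shifted few nuclear members. Of the 90, 14 fell and 4 rose, 15.6% and 4.44%, where 25.4% of all tested genes fell and 23.3% rose. Their median was -0.14 against -0.05 for all genes. With T cell gene scaling it was 0.45 against 0.53 for all genes. Under that scaling 54 nuclear members rose and none fell (edgeR), where 7006 of all 15922 tested genes rose and 60 fell. The count of 14 was unsteady: 8 with upper-quartile factors, 8 without WT conventional replicate 3 or without KO regulatory replicate 2, 22 without WT regulatory replicate 3, and 26 without the 2 libraries holding both Xist and Y-linked reads. Those that fell were Ndufs3, Ndufs1, Ndufs7 and Ndufv1 of complex I with the accessory subunit Ndufb2, Sdha and Sdhb of complex II, Cyc1, Uqcrc1, Uqcrc2 and Uqcrfs1 of complex III, and Atp5a1, Atp5b and Atp5d of complex V. Of these, Ndufs1, Ndufs7, Ndufv1, Sdhb, Uqcrc2, Uqcrfs1 and Atp5a1 are named after their values were seen. All 14 turned positive with T cell gene scaling, from 0.22 (Ndufs3) to 0.44 (Ndufv1), and Sdhb was called higher (0.44, adjusted p = 0.0477). By complex, 5 of 36 genes fell in complex I, 2 of 4 in complex II, 4 of 9 in complex III and 3 of 16 in complex V, and the complex IV and assembly genes called were higher.

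Ndufs3 (chr2:90894634-90904827, minus strand), a core subunit of the arm of complex I that takes electrons from NADH, was 46.7, 49.3 and 50.4 CPM in WT conventional libraries against 38.3, 37.5 and 37.1 CPM in the KO ones. The groups were clear of each other, with a log2 change of -0.37 (SE 0.08, adjusted p = 0.00205). Of its 50-base words, 39.7% also occur in another gene, most in the pseudogene Gm12251, so its level is uncertain. Atp5b (chr10:128083273-128090391), the catalytic beta subunit of ATP synthase, was 623, 674 and 709 CPM in WT libraries against 550.2, 536 and 530.1 CPM in KO libraries, a log2 change of -0.31 (SE 0.07, adjusted p = 0.00281). Atp5d (chr10:80138632-80145818), a subunit of the rotating stalk of ATP synthase, had a log2 change of -0.35 (SE 0.08, adjusted p = 0.0034), and Ndufb2 of -0.33 (SE 0.09, adjusted p = 0.0141). With T cell gene scaling all 4 turned, to values of 0.22 to 0.28 that did not pass. Ndufb2 missed the threshold without WT conventional replicate 3 (adjusted p = 0.0522) and without KO conventional replicate 3 (adjusted p = 0.0628). Among those higher, Ndufaf7, a methyltransferase that modifies complex I during assembly, rose by 0.35 (SE 0.10, adjusted p = 0.0162), from 14.5, 12.4 and 13.0 CPM to 16.7, 15.3 and 18.8 CPM. Sdhd, a membrane anchor of complex II, rose by 0.14 (SE 0.05, adjusted p = 0.0442), from 59.8, 60.3 and 61.3 CPM to 66.4, 62.4 and 70.6 CPM. Neither call was firm. Ndufaf7 was not called without WT conventional replicate 2 or 3 or KO conventional replicate 3 (adjusted p = 0.0554 to 0.0755), and Sdhd not without any of 8 of the 12 libraries (adjusted p up to 0.176). The other 2 that rose, Cox6a2 and Cox6b2, are isoforms described below.

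In regulatory cells 1 of the 90 nuclear members rose with loss of Coro1a and none fell (edgeR), where 4.01% of all tested genes rose and 3.82% fell. The nuclear median was 0.02. With T cell gene scaling it was 0.55 and 69 nuclear members rose, where 5116 of all 15922 tested genes rose and 41 fell. At an unadjusted p below 0.05, 6 nuclear members were higher and 1 lower, a count not made over all genes, and DESeq2 called none higher. The gene called was the low-count isoform Cox7a1, and its call was lost without any 1 of the 6 regulatory libraries or WT conventional replicate 2. For Sdha and Cyc1, which fell in conventional cells, the regulatory values were near 0, with Sdha at -0.01 (SE 0.05, adjusted p = 0.926) and Cyc1, the cytochrome c1 of complex III, at 0.01 (SE 0.06, adjusted p = 0.909).

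Between the cell types the nuclear members moved largely one way. In WT 76 of the 90 rose in regulatory over conventional cells, 84.4% against 39.1% of all tested genes, and 3 fell, with a median of 0.48 against 0.07. In KO 80 rose, 88.9% against 36.1%, and 1 fell, with a median of 0.63 against 0.03. The B cell and erythroid marker sums differed between the same libraries (9497 to 11450 against 510.3 to 633 CPM, and 5181 to 9531 against 6.20 to 78.6 CPM). Other cells' markers given above differed too, and the part of all these cells in these results was not tested. Among libraries with Ddx3y and little Xist, the nuclear sum was 6786 CPM in WT conventional replicate 3 against 9132 and 8867 CPM in WT regulatory replicates 1 and 2, and 5784 CPM in KO conventional replicate 3 against 8764 and 9423 CPM in KO regulatory replicates 2 and 3. All 9 nuclear genes of complex III rose in both genotypes, as did 13 of 16 tested complex IV genes and 15 of 16 complex V genes. In complex I 30 of 36 rose in WT and 33 in KO, in complex II 3 of 4 and 4, and of the Ndufaf genes 5 of 8 and 6. Ndufs8 (chr19:3908863-3912774, minus strand), a core iron-sulfur subunit of complex I, was 34.0, 36.1 and 40.5 CPM in WT conventional and 78.5, 88.5 and 82.0 CPM in WT regulatory libraries, and 35.6, 37.3 and 39.2 CPM against 82.9, 79.5 and 88.6 CPM in the KO ones. It rose 2.25-fold in WT (log2 1.17, SE 0.07, adjusted p = 1.27e-07) and 2.24-fold in KO (log2 1.16, SE 0.07, adjusted p = 2.06e-07), and none of its words was shared with another gene. Uqcr11 (chr10:80402997-80406830, minus strand), a small subunit of complex III, was 18.5, 23.1 and 23.0 CPM in WT conventional and 45.3, 43.6 and 36.3 CPM in WT regulatory libraries, and rose by 0.95 (SE 0.10, adjusted p = 5.7e-06) in WT and 0.98 (SE 0.10, adjusted p = 6.17e-06) in KO. In WT Ndufaf2, an assembly factor of which 80.9% of words occur in other genes, rose by 0.82 (SE 0.15, adjusted p = 3.57e-04) and Ndufc2, a membrane-arm subunit of complex I, by 0.82 (SE 0.11, adjusted p = 4.1e-05). In KO Atp5d rose by 0.96 (SE 0.08, adjusted p = 1.12e-06) and Ndufa11, an accessory subunit of complex I, by 0.93 (SE 0.11, adjusted p = 2.17e-05).

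A few nuclear members went against this. Ndufab1 (chr7:122085403-122101886, minus strand), an acyl carrier protein that serves both complex I and mitochondrial fatty acid synthesis, was 27.0, 25.8 and 27.8 CPM in WT conventional and 18.1, 21.8 and 18.0 CPM in WT regulatory libraries. It fell by 0.47 (SE 0.09, adjusted p = 7.03e-04) in WT and by 0.44 (SE 0.09, adjusted p = 0.00124) in KO. Ndufaf4, an assembly factor of complex I, fell by 0.49 (SE 0.13, adjusted p = 0.00444) in WT, and in KO its value was -0.29 (SE 0.13, adjusted p = 0.0656). Under T cell gene scaling these turned to 0.16 and 0.12 for Ndufab1 and to 0.13 for Ndufaf4. The third gene to fall in WT was Atp5l, named after its value was seen (log2 -0.83, SE 0.26, adjusted p = 0.014), with 1.41 to 2.22 CPM in WT conventional and 0.758 to 1.16 CPM in WT regulatory libraries. Sdha was the one complex II gene not to pass in WT, at 295, 298 and 293 CPM in conventional and 308, 288 and 283 CPM in regulatory libraries (log2 -0.01, SE 0.05, adjusted p = 0.836), though it passed with T cell gene scaling (0.63).

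**Figure D4:**
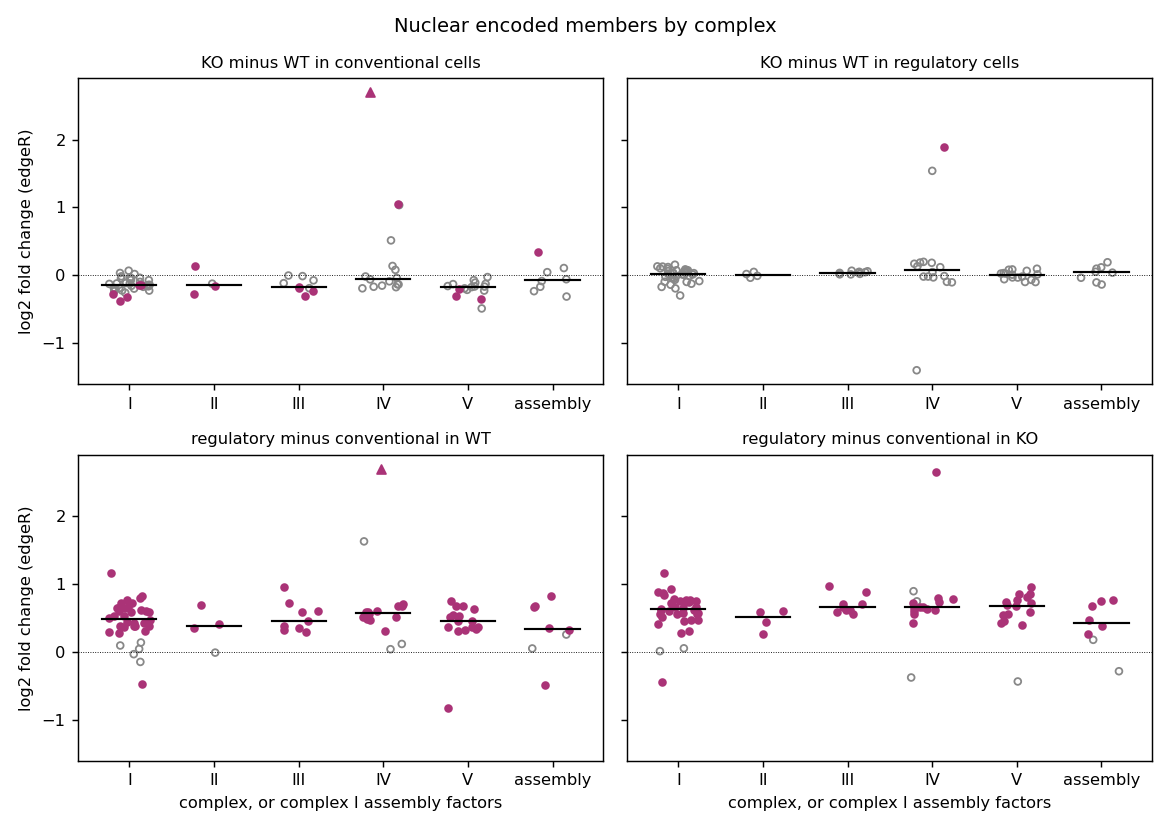
Log2 fold changes under TMM scaling (edgeR) of the nuclear members in 4 comparisons, by complex or as complex I assembly factors; filled points passed an adjusted p of 0.05, open ones did not, lines are medians, and triangles mark Cox6a2 above the axis limit (3.80 and 5.95). Medians lie between -0.17 and 0.08 for KO minus WT and between 0.34 and 0.68 for regulatory minus conventional cells; T cell gene scaling moves the conventional KO minus WT medians to 0.42 to 0.54.

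The promoters of nuclear members were read for motifs of transcription factors known to control respiratory genes, since these members moved together between the cell types. Promoters (250 bases before to 50 after the start, RefSeq, GRCm38.p6) were found for 74 of the 94. On either strand, the NRF1 motif GCGCANGCG occurred in 22 of the 74 (29.7%, against 7.03% of 27025 genes with a promoter), the YY1 motif AAGATGGCG in 8 (10.8% against 1.64%), the GABPA motif CCGGAAGT in 5 (6.76% against 4.31%) and the ESRRA motif TCAAGGTCA in 2 (2.7% against 0.466%). Any of the 4 motifs was present in 32 genes, 43.2% against 12.3% of all. The motifs as written can overlap each other in a promoter, and a match is a description of letters only. Ndufs8 and Uqcr11 are shown as the 2 with the largest rises in regulatory cells by the rule for named genes, with and without a match, and Sdha as the nuclear gene with the lowest adjusted p for the difference of knockout effects described next. Capitals mark motif letters. The windows are chr10:80406772-80407071 for Uqcr11, chr19:3912725-3913024 for Ndufs8 and chr13:74350191-74350490 for Sdha, all minus strand.
Uqcr11: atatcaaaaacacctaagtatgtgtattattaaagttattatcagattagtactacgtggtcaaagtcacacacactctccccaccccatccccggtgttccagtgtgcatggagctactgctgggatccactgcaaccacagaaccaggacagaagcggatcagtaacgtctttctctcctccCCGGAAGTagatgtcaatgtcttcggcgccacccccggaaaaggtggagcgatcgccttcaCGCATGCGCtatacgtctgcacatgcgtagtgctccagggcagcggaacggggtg
Ndufs8: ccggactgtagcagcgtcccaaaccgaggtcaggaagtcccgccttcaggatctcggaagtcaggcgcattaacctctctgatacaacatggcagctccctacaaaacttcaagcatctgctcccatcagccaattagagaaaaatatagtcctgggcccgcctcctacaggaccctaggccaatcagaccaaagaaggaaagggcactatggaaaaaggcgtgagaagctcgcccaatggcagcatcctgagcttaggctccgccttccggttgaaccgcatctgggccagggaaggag
Sdha: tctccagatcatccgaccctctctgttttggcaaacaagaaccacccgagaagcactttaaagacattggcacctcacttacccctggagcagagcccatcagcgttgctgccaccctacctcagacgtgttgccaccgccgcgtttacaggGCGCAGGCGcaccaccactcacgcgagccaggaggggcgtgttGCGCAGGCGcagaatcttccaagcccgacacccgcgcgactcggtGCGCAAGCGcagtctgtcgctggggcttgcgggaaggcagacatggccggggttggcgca

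Uqcr11 held 1 GABPA and 1 NRF1 match (the latter read on the other strand), Sdha 3 NRF1 matches and Ndufs8 none of the 4 motifs.

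The difference of the knockout effects, regulatory minus conventional, was tested as an interaction. It was higher in 7 of the 90 nuclear members and lower in 1, 7.78% and 1.11%, where 8.86% of all tested genes were higher and 12.4% lower, with a median of 0.13 against 0.02. Without KO regulatory replicate 1 the 7 became 11, and the count over all genes without that library is not given here. With DESeq2 the 7 became 12, where DESeq2 called 1773 of all 15922 tested genes higher against 1411 with edgeR. With T cell gene scaling no nuclear member was higher (edgeR), adjusted or at an unadjusted p below 0.05. Over all 15922 tested genes 30 were called higher under that scaling. Sdha (chr13:74322254-74350280, minus strand), the flavoprotein of complex II that oxidises succinate, was 295, 298 and 293 CPM in WT conventional libraries against 247, 243 and 238 in KO ones, and 308, 288 and 283 CPM in WT regulatory libraries against 279.7, 299 and 294 in KO ones. KO conventional libraries alone stood apart, and the difference of effects was 0.27 (SE 0.06, adjusted p = 0.0125). Cyc1 (chr15:76343523-76346260) was 74.3, 78.3 and 83.0 CPM in WT conventional libraries against 63.5, 63.8 and 63.5 in KO ones, and 98.2, 98.6 and 92.7 CPM in WT regulatory libraries against 96.2, 92.2 and 104 in KO ones, with a difference of 0.32 (SE 0.08, adjusted p = 0.015). The differences of Uqcrc1, a core subunit of complex III (0.29, SE 0.07), Atp5b (0.38, SE 0.09), Atp5d (0.44, SE 0.11) and Ndufs3 (0.41, SE 0.11) had adjusted p between 0.0167 and 0.0199. Ndufs3 missed the threshold without WT conventional replicate 3 (adjusted p = 0.0519). The seventh was Ndufv1, the subunit of complex I that binds NADH (0.22, SE 0.07, adjusted p = 0.0433), named after its value was seen, and the 1 lower was Cox6a2. In each of the 7 the conventional value was negative and passed, and the regulatory one did not pass. With T cell gene scaling all 7 conventional values turned positive, from 0.22 (Ndufs3) to 0.44 (Ndufv1).

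Of the mitochondrially encoded genes, 1 of 7 passed the same test. mt-Nd6 had a difference of 0.77 (SE 0.19, adjusted p = 0.0144), with -0.69 in conventional and 0.08 in regulatory cells. Its value under T cell gene scaling was 0.75 and did not pass (adjusted p = 0.322). The other 6 had differences of 0.29 to 0.55 with adjusted p of 0.103 to 0.389, so they did not pass, which does not show that they were alike in both cell types. DESeq2 called 2 of the 7, where it called 1773 of all 15922 tested genes higher and 2279 lower.

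**Figure D5:**
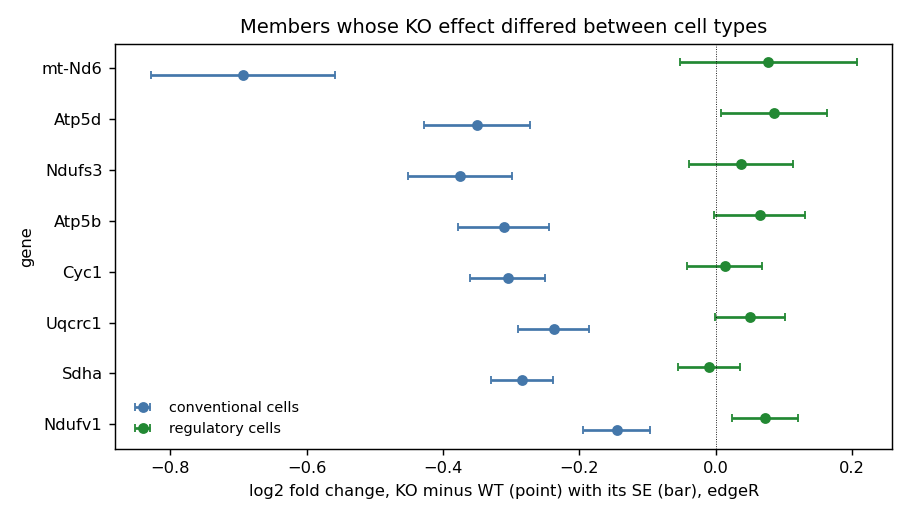
Log2 fold change of KO minus WT (points) with its SE (bars) under TMM scaling, in conventional and regulatory cells, for the 8 members with a called positive difference of effects. Conventional values lie between -0.69 and -0.15 and regulatory ones between -0.01 and 0.09; with T cell gene scaling the 7 nuclear genes turn positive in conventional cells (Ndufs3 0.22 to Ndufv1 0.44).

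Isoforms of complex IV subunits, with Ndufa4l2 counted among them, that are known from muscle, lung, testis or fat were near the floor of detection beside their general counterparts. Cox7b2 and Cox8c had a count of 0 in all 12 libraries, Cox8b held 4 counts over the 3 KO regulatory libraries and 0 elsewhere, and Ndufa4l2 held 1 count in WT conventional, 0 in KO conventional, 18 in WT regulatory and 41 in KO regulatory libraries. The counterparts were measured well: in WT conventional cells Cox7b stood at 69.8 ± 6.33, Cox8a at 75.3 ± 6.49 and Ndufa4 at 72.7 ± 5.001 CPM (SD, n = 3). Cox4i2, the form of subunit 4 known from lung, was 0.0320 to 0.101 CPM in WT conventional and 0.547 to 0.719 CPM in KO regulatory libraries, beside 202 ± 10.5 and 328 ± 21.2 CPM (SD, n = 3) of Cox4i1. It rose by 2.66 (SE 0.62, adjusted p = 0.00244) in regulatory over conventional KO cells, on 61 against 10 counts.

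Cox6a2, the heart and muscle form of subunit 6a, held 1 count in the 3 WT conventional libraries, 21 in KO conventional, 77 in WT regulatory and 34 in KO regulatory libraries. By library it was 0.0336, 0 and 0 CPM in WT conventional libraries against 0.0277, 0.172 and 0.426 in KO ones, and 0.542, 1.33 and 0.838 CPM in WT regulatory libraries against 0.0938, 0.393 and 0.547 in KO ones. KO conventional replicate 1 lay within the WT conventional range. The ratio of summed counts per gene count was 21 for KO over WT conventional (95% exact interval 3.37 to 867) and 88.9 for WT regulatory over WT conventional libraries (15.5 to 3557), and these intervals cover counting error only. The test called KO higher than WT in conventional cells (adjusted p = 0.0377), WT regulatory higher than WT conventional (adjusted p = 5.53e-04) and the difference of knockout effects lower (-5.21, SE 1.51, adjusted p = 0.0303), all on these few counts. The lower difference was no longer called without WT conventional replicate 2 or 3, KO conventional replicate 3, WT regulatory replicate 2 or KO regulatory replicate 2. Cox6a1, its general counterpart, was 83.4 ± 10.2 CPM (SD, n = 3) in WT conventional libraries against 73.8 ± 3.38 in KO ones and did not pass there.

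Cox6b2, a form of subunit 6b known from testis, was 0.908, 1.11 and 0.961 CPM in WT conventional libraries against 2.61, 1.69 and 1.88 CPM in KO ones. The groups did not overlap, and it rose by 1.05 (SE 0.26, adjusted p = 0.00647), while Cox6b1 stood at 81.2 ± 8.47 and 80.1 ± 2.26 CPM (SD, n = 3). Cox7a1, a form known from heart, muscle and brown fat, was 0.108, 0.129 and 0.129 CPM in WT regulatory libraries against 0.563, 0.393 and 0.456 CPM in KO ones, 10 against 46 counts. It rose by 1.89 (SE 0.47, adjusted p = 0.0331), with Cox7a2 at 78.7 ± 6.19 and 76.9 ± 7.08 CPM (SD, n = 3). The 10 muscle and fat markers summed to 2.98 to 3.77 CPM in WT conventional, 4.92 to 5.92 in KO conventional, 5.42 to 6.19 in WT regulatory and 5.87 to 7.001 CPM in KO regulatory libraries. Of these Myh4 and Mb, a muscle myosin and myoglobin, were at 0 in all 12 libraries, Ucp1 in every group but KO regulatory, Cidea in both WT groups and Myh7 in WT conventional. Their part in the isoform values was not tested.

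Other mitochondrial genes were read in 7 lists. In conventional cells 25.4% of all tested genes were lower and 23.3% higher in KO under TMM, and the lists are read against these shares. Of 18 tested genes of the tricarboxylic acid cycle 14 fell, with a median of -0.21, such as Idh2, mitochondrial isocitrate dehydrogenase (-0.52, SE 0.10, adjusted p = 0.00111), and Cs, citrate synthase (-0.26, SE 0.04, adjusted p = 3.55e-04). Of 36 genes of mitochondrial DNA upkeep, transcription and RNA processing 19 fell and 1 rose (median -0.20), and Polg, the catalytic subunit of the mitochondrial DNA polymerase, was 200.4 CPM on average in WT and 131 in KO libraries (-0.61, SE 0.05, adjusted p = 4.93e-06). Of 81 mitochondrial ribosomal proteins 32 fell (median -0.18), of 23 import and antioxidant genes 12 fell and 1 rose (-0.20), of 20 regulators of respiratory gene transcription 11 fell and 2 rose (-0.19), of 43 assembly factors of complexes II to V 10 fell (-0.09), and of 27 electron carriers, metabolite carriers and uncoupling genes 8 fell and 4 rose (-0.10). The shares that fell were 77.8% for the tricarboxylic acid cycle, 52.8% for DNA upkeep, 39.5% for ribosomal proteins, 52.2% for import and 55% for regulators, while assembly factors (23.3%) and carriers (29.6%) lay near the share of all genes. Pprc1, a coactivator of respiratory genes, fell by 0.54 (SE 0.06, adjusted p = 5.23e-05), and Etfb, a subunit that passes electrons from fatty acid oxidation, rose by 0.66 (SE 0.06, adjusted p = 1.21e-05). With T cell gene scaling all 7 medians turned to between 0.38 and 0.50, against 0.53 for all genes, and Idh2 (0.07), Cs (0.33) and Pprc1 (0.04) turned with them, while Polg stood at -0.02. In regulatory cells, where 4.01% of all tested genes rose and 3.82% fell, 2 genes of these lists rose and 2 fell, a smaller share than over all genes: Mrpl32 and Coq8a were higher (0.29 and 0.54, adjusted p = 0.0428 and 0.00765) and Gabpb2 and Pdss1 lower (-0.34 and -0.48, adjusted p = 0.017 and 0.0469), the last 2 turning to 0.21 and 0.05 with T cell gene scaling.

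Between regulatory and conventional cells the counts are read against all tested genes, of which 39.1% rose and 33.3% fell in WT, and 36.1% and 31.7% in KO. Of the 81 mitochondrial ribosomal proteins 54 rose and 8 fell in WT (median 0.32) and 68 rose and 3 fell in KO (0.51), such as Mrpl45 (0.93, SE 0.07, adjusted p = 2.69e-07 in WT). Of the 23 import and antioxidant genes 13 rose and 2 fell in WT and 19 rose and 3 fell in KO, and of the 27 carriers 16 rose in each genotype and 3 fell in WT, with Coq8a, needed for coenzyme Q synthesis, up by 1.66 (SE 0.10, adjusted p = 7.19e-08) in WT. Of the 18 tricarboxylic acid cycle genes 10 rose and 4 fell in WT and 13 rose in KO, Fh1, fumarase, by 0.94 (SE 0.06, adjusted p = 1.31e-07) in WT. Of the assembly factors 15 rose and 7 fell in WT and 19 and 7 in KO, and the shares that rose, 34.9% and 44.2%, lay near those of all genes. Sdhaf1, an assembly factor of complex II, rose by 1.34 (SE 0.10, adjusted p = 3.63e-07) in WT, and Cox17, a copper chaperone for complex IV, fell by 1.22 (SE 0.10, adjusted p = 1.06e-06), or by 0.59 (adjusted p = 0.0286) with T cell gene scaling. Genes of mitochondrial DNA upkeep, transcription and RNA processing went both ways, 7 up (19.4%) and 14 down (38.9%) in WT (median -0.12, or 0.51 with T cell gene scaling) and 12 up and 10 down in KO (median 0.00). Polg2, an accessory subunit of the mitochondrial DNA polymerase, fell by 0.82 (SE 0.08, adjusted p = 2.56e-06) in WT, but stood at -0.18 (adjusted p = 0.432) with T cell gene scaling. Of the 20 regulators 4 rose and 14 fell in WT and 5 rose and 12 fell in KO, with medians of -0.45 and -0.27 (0.20 and 0.31 with T cell gene scaling). Nfe2l2, a transcription factor of the antioxidant response, fell by 1.07 (SE 0.04, adjusted p = 7.38e-09) in WT, and stood at -0.43 (adjusted p = 0.0631) with that scaling. The nuclear members of the respiratory complexes, at 76 of 90 risen in WT, stood beside lists with 7 of 36 (19.4%) to 54 of 81 (66.7%) risen. In KO the nuclear members, at 88.9% risen, stood close to the mitochondrial ribosomal proteins (84%) and the import and antioxidant genes (82.6%).

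For the difference of knockout effects, 9 of 81 mitochondrial ribosomal proteins, 6 of 18 tricarboxylic acid cycle genes, 3 of 23 import and antioxidant genes, 2 of 36 genes of mitochondrial DNA upkeep, transcription and RNA processing, 2 of 20 regulators, 1 of 43 assembly factors and 1 of 27 carriers were higher, and 3 carriers were lower, beside 7 of 90 nuclear members. Over all tested genes 8.86% were higher and 12.4% lower, and of the lists the tricarboxylic acid cycle, at 33.3% higher, lay well above that share, with the other 6 at 2.33 to 13%. Polg had a difference of 0.67 (SE 0.07, adjusted p = 2.11e-04), with group means of 200.4, 131, 111 and 116 CPM in WT conventional, KO conventional, WT regulatory and KO regulatory libraries. Idh2 had 0.61 (SE 0.14, adjusted p = 0.0103), with group means of 72.2, 50.2, 44.9 and 47.6 CPM in the same order. Neither passed with T cell gene scaling, Polg at 0.60 (adjusted p = 0.226) and Idh2 at 0.56 (adjusted p = 0.582).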

How the data were processed

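Polyadenylated RNA was sequenced in 12 libraries from a stranded kit. The authors deposited 1 table of raw read counts per Ensembl gene, with STAR and GRCm38 named per the submitters' processing notes, counting for the reverse strand per the name of the deposited table, and multimapping reads in a separate tally. The annotation release is not given in the sources used here. Symbols and positions came from GENCODE M21 (45143 of 45706 IDs matched).

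The count model was edgeR 4.0.16 (R 4.3.3): filterByExpr (minimum count 10, minimum total 15), TMM, a term per group over all 12 libraries, the quasi-likelihood F test (two-sided) and Benjamini-Hochberg adjustment over 15922 genes at 0.05. Each SE was obtained as the absolute log2 fold change over the square root of F. Libraries of 19686870 to 33404302 counts give exact intervals for low counts that cover counting error only. Ratios and shares were compared with exact permutation tests in Python 3.11.15. The procedure was tested on simulated counts.

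Named were all mitochondrially encoded members, in each 2-group comparison up to 4 nuclear members with the highest and 4 with the lowest called log2 fold change (a mean of 5 CPM in 1 group, no overlap of libraries), the 6 with the smallest p for the difference of effects, the most abundant of each complex, listed tissue isoforms, and up to 2 genes per list and comparison, of which some are printed. One result under this rule is not reported here. Members and lists were chosen with earlier results of these data known. Replicate numbers were not used to pair libraries in the main fit, and the labels do not say whether equal numbers share an animal or batch.

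Alternatives were RLE and upper-quartile factors, scaling to 6 T cell genes, mitochondrial genes left out of totals, DESeq2 1.42.0, limma-voom (limma 3.58.1), no filter, a mean of 5 CPM, a fit of 2 groups alone, a block for replicate number and each library left out. Leaving out the 2 libraries with Xist and Y-linked reads and levels per unshared length were added after seeing the data. Figures used matplotlib 3.10.9.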

Additional observations from a re-analysis of the deposited data

Results flagged for a closer look

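Members whose knockout effect differed between regulatory and conventional cells in the interaction test (edgeR, Benjamini-Hochberg adjusted) were mt-Nd6 (0.77 on the log2 scale), Atp5d (0.44), Ndufs3 (0.41), Atp5b (0.38), Cyc1 (0.32), Uqcrc1 (0.29), Sdha (0.27), Ndufv1 (0.22) and Cox6a2 (-5.21). In the first 8 the KO value was negative and called in conventional cells and not called in regulatory cells. With T cell gene scaling these 8 kept a positive difference, from 0.16 (Ndufv1) to 0.75 (mt-Nd6), and none of the 8 passed, while Cox6a2 did (-5.23). Cox6a2 rests on 1, 21, 77 and 34 summed counts in WT conventional, KO conventional, WT regulatory and KO regulatory libraries. No group of 4 or more libraries exists, so single libraries were not tested as outliers.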

How the results depend on the processing

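Scaling to 6 T cell genes moved most. It called 0 mitochondrially encoded members for KO minus WT in conventional cells and 0 for the difference of effects. It called 54 nuclear members higher and 0 lower for KO minus WT in conventional cells, 69 higher in regulatory cells, 0 lower for regulatory minus conventional in WT or KO, and 0 higher for the difference. Over all 15922 tested genes it called 7006 higher and 60 lower for KO minus WT in conventional cells, and 5116 and 41 in regulatory cells. Between the cell types 966 genes were lower in WT and 1074 in KO, and 30 were higher for the difference. Under it the nuclear median for KO minus WT in conventional cells turned to 0.45 and the mitochondrial median in regulatory cells to 0.21. Ndufs3 (0.22), Atp5d (0.24), Ndufb2 (0.26) and Atp5b (0.28) turned in the conventional comparison, and Ndufaf4 (0.13) and Ndufab1 (0.16 in WT, 0.12 in KO) between cell types. The cause was not tested.

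Nuclear members lower in KO conventional cells numbered 8 with upper-quartile factors, 23 with mitochondrial genes left out of totals, 6 at a mean of 5 CPM, 26 without the 2 libraries with Xist and Y-linked reads, and 8 to 22 with 1 library left out. Those higher numbered 2 with limma-voom and 1 to 4 with 1 library left out (1 without WT conventional replicate 2 or 3 or KO conventional replicate 3). For all genes in that comparison, upper-quartile factors gave 4057 higher and 2840 lower, and a mean of 5 CPM 2780 and 2055, against 3706 and 4043. In regulatory cells the 1 nuclear member higher became 0 with DESeq2, no filter, a mean of 5 CPM, the replicate block, only the 2 groups, or without the 2 libraries, and 0 to 1 with 1 left out. Those lower numbered 0 to 1 (1 without WT regulatory replicate 3). Mitochondrial members called there numbered 2 with DESeq2 and 0 to 1 with 1 left out. For all genes there, DESeq2 gave 945 higher and 1065 lower, against 638 and 608. For regulatory minus conventional in KO, 2 nuclear members were lower with upper-quartile factors, limma-voom or a mean of 5 CPM, and 1 to 2 with 1 left out (2 without WT regulatory replicate 2 or KO regulatory replicate 3). For the difference of effects 15 nuclear members were higher with mitochondrial genes left out of totals, 12 with DESeq2 and 5 to 11 with 1 left out, and 0 to 2 were lower (2 without WT regulatory replicate 1 or 3). For all genes, 1949 were higher with mitochondrial genes left out of totals and 1773 with DESeq2, against 1411. DESeq2 called 2 mitochondrial members.

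With medians of log2 CPM in place of sums, the log2 ratio differences were -0.71 (KO minus WT, conventional), 0.60 and 0.98 (regulatory minus conventional, WT and KO). With unassigned reads in the total, the share differences were -0.51, 3.40 and 3.04 percentage points. Same-numbered libraries of 2 groups had correlations of -0.73 to 0.37. With 3 libraries a group these cannot settle whether the numbers pair libraries. In the conventional groups the sex of the cells matched by replicate number. The replicate block, beside the change above, ended the call of Sdhd (0.14, adjusted p = 0.0642). Depth limits the isoforms with fewer than 100 counts a group.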
